A study of Mus musculus with 6 samples.

Results

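The 10 genes described here are *Lpl*, *Gpihbp1*, *Lmf1*, *Angptl4*, *Cd36*, *Slc27a1*, *Slc27a4*, *Fabp4*, *Fabp5* and *Olr1*, which together cover the release of fatty acids from circulating lipoproteins and their uptake by fat tissue. They were chosen by gene symbol for that role, with earlier results of these data known. Each was found among the 36144 symbols in the authors' gene table. All 10 were among the 16069 genes with enough counts to be tested. RNA-seq was done on whole inguinal white adipose tissue (iWAT) with the lymph nodes taken out, from female C57BL6/J mice, 10 weeks old and ad libitum fed. The 3 control mice were Cebpa_fl/fl and AdipoQ-Cre-, and the 3 Cebpa_ASKO mice were Cebpa_fl/fl and AdipoQ-Cre+, so both groups carried the floxed *Cebpa* alleles. Both inguinal depots of a mouse were extracted together, each mouse gave 1 library, and all libraries carried the same batch label. AdipoQ-Cre acts in cells that express adiponectin, and cells of the depot that do not express it are not its target.

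Lipoprotein lipase is made by adipocytes, folded in the endoplasmic reticulum with the help of lipase maturation factor 1 (*Lmf1*), and carried to the capillary surface by the endothelial protein GPIHBP1. There it hydrolyses the triglyceride of chylomicrons and VLDL, and ANGPTL4 inactivates it. The fatty acids enter adipocytes with the help of CD36 and of fatty acid transport proteins of the *Slc27a* family, and fatty acid binding proteins carry them inside the cell. C/EBPα, the product of *Cebpa*, is a transcription factor of adipocyte differentiation.

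In Cebpa_ASKO iWAT, *Lpl*, *Gpihbp1*, *Lmf1*, *Slc27a1* and *Fabp5* fell, to between 17.4% and 64.6% of their control means. *Cd36* and *Fabp4* did not pass the test, although each of their Cebpa_ASKO values lay below each control value. *Angptl4* and *Slc27a4* overlapped between the genotypes. *Olr1* was near the detection limit and higher in every Cebpa_ASKO library, without passing the test. Genes were compared by the quasi-likelihood test of edgeR, fitted to all 16069 genes at once, with p-values adjusted by the Benjamini-Hochberg method and 0.05 as the threshold for a call. Of the 10 genes, 5 were called lower and 0 higher in this test. The background over the whole table was 5.23% of genes called, with 3.84% lower and 1.39% higher. At an unadjusted p below 0.05 there were 8 of the 10 genes, with *Olr1* the only one of them higher, and 3185 of all genes. DESeq2 called 7 of the 10 lower and 1 higher, against a background of 10.1%. The genotypes did not overlap for 7 genes that were lower and 1 that was higher, where 26.1% of all genes were apart, 13.2% as lower and 12.9% as higher. The median log2 fold change of the 10 genes was -0.83, and that of all genes tested was 0.02. Because whole tissue was sequenced, fewer cells of a type and less RNA per cell cannot be told apart.

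**Figure D1:**
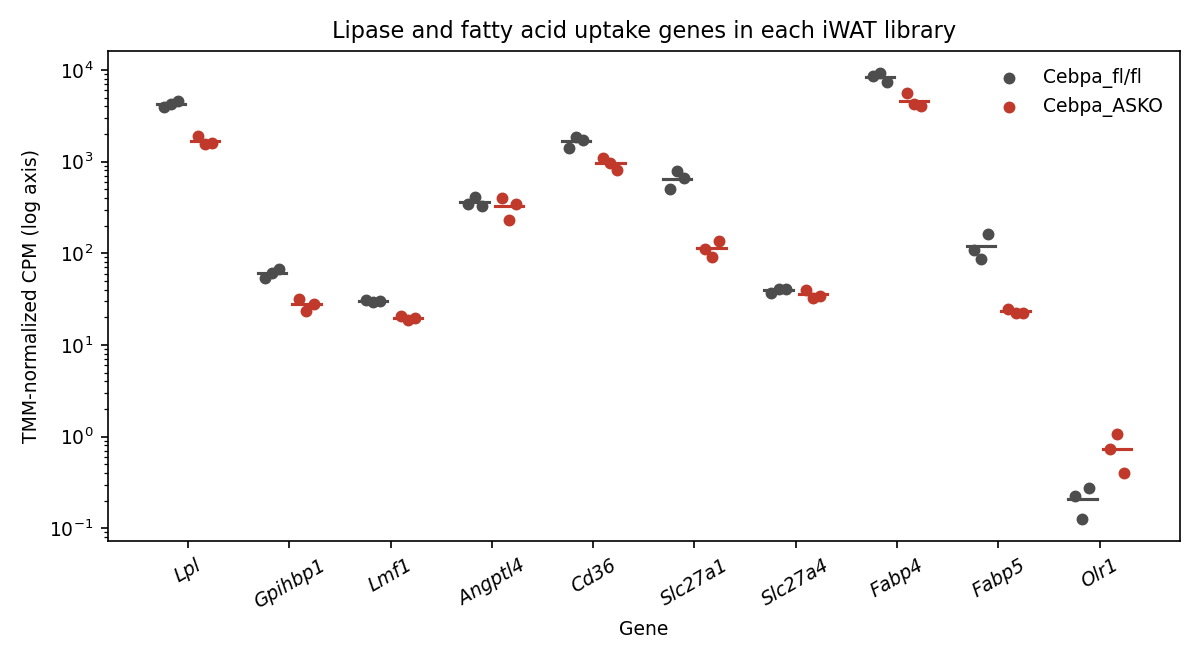
Level of each of the 10 genes in each library, as TMM-normalized CPM on a log axis. Points are libraries (dark, Cebpa_fl/fl; red, Cebpa_ASKO; 3 each) and short lines are means. The genotypes are apart for *Lpl*, *Gpihbp1*, *Lmf1*, *Cd36*, *Slc27a1*, *Fabp4*, *Fabp5* and *Olr1*, and overlap for *Angptl4* and *Slc27a4*.

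The libraries held from 33141769 to 49477671 estimated counts, and the 3 Cebpa_ASKO libraries were the shallower ones. Values per library are CPM, the counts as a share of the library's total, scaled by TMM, a method that corrects for differences in composition between libraries. *Cebpa* itself was at 448, 465 and 498 CPM in the controls and at 37.7, 45.8 and 37.2 CPM in Cebpa_ASKO, a log2 fold change of -3.55 ± 0.131 (SE). Adipocyte markers were present in every library, and the summed level of 12 of them ran from 8977 to 10853 CPM in controls and from 2590 to 3476 CPM in Cebpa_ASKO. Of these markers 8 of 12 were called lower, with a median log2 fold change of -1.86. Among 12 endothelial markers 2 were called lower, the median was -0.47, and the sum ran from 484 to 584 CPM in controls and from 350 to 468 CPM in Cebpa_ASKO. All 12 skeletal muscle markers were called higher, with sums of 593 to 787 CPM in controls and 1997 to 5647 CPM in Cebpa_ASKO, the highest in Cebpa_ASKO 2. The 12 macrophage markers, with a median log2 fold change of 0.13, summed to 1226 to 3312 CPM in controls and 1986 to 2764 CPM in Cebpa_ASKO, with Cebpa_fl/fl 2 the highest of all. The 12 mammary epithelium markers, with a median of 0.78, summed to 953 to 2133 CPM in controls and 2747 to 2888 CPM in Cebpa_ASKO. The 10 keratinocyte markers summed to 6.82 to 11.4 CPM in controls and 18.5 to 46.0 CPM in Cebpa_ASKO, with *Sprr1a* at 2.87 ± 3.29 and 26.6 ± 12.5 CPM and *Ivl* at 0.456 ± 0.514 and 4.38 ± 5.17 CPM. *Krt10*, the most abundant of these markers in controls, was at 4.02 ± 0.947 and 4.71 ± 0.394 CPM and overlapped. *Ivl* overlapped as well, and the means of *Dsc3*, *Krtdap*, *Dsg1a* and *Lor* were lower in Cebpa_ASKO. Only 4 of the 10 had enough counts to be tested, and 0 were called. The part of these cell types in the results that follow was not tested.

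*Lpl* (chr8:68880491-68907448, plus strand, GRCm38) was the second most abundant of the 10 genes. It stood at 3991, 4237 and 4614 CPM in the control libraries and at 1919, 1567 and 1603 CPM in the Cebpa_ASKO libraries. Every Cebpa_ASKO library was below every control by more than the spread within either genotype. The means were 4281 ± 314 and 1696 ± 194 CPM (SD, n = 3 each), so the Cebpa_ASKO mean was 39.6% of the control mean, with a log2 fold change of -1.34 ± 0.182 (SE) and an adjusted p of 0.00988 in edgeR's test. Without Cebpa_ASKO 2 the log2 fold change was -1.30 and the adjusted p 0.0647. By TPM, which is a share per transcript length and so allows levels of different genes to be compared, *Lpl* ranked between 61 and 92 among all genes in the controls and between 224 and 245 in Cebpa_ASKO. One annotated protein-coding transcript carried 99.8% of its counts in controls and 99.7% in Cebpa_ASKO.

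*Gpihbp1* (chr15:75596628-75599481, plus strand), whose product moves the lipase across capillary endothelium, fell by a similar amount. Its levels were 53.3, 60.6 and 67.4 CPM in controls and 31.6, 23.6 and 27.8 CPM in Cebpa_ASKO, with no overlap. The log2 fold change was -1.13 ± 0.138 (SE) and the adjusted p 0.00659 in edgeR's test. The gene is known as one of capillary endothelial cells, which are not known to express adiponectin. In the main fit none of the 12 endothelial markers had a lower log2 fold change. The lowest of them, the tight junction gene *Cldn5*, was close to *Gpihbp1*, at -1.10 ± 0.232 (SE). With 1 library left out *Gpihbp1* ran from -1.23 to -1.04, and its order against the markers was not compared in those fits. *Emcn*, the other endothelial marker called lower, was at -0.60, and *Pecam1* was at -0.33 with an adjusted p of 0.156. Of 6 other genes of endothelial fatty acid supply, *Car4*, at -1.63 ± 0.277 (SE), and *Vegfb*, at -1.19 ± 0.134 (SE), had lower log2 fold changes. So did *Tcf15*, at -1.16 ± 0.337 (SE) with an adjusted p of 0.115 in edgeR's test. The difference between *Gpihbp1* and these genes was not tested.

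*Lmf1* (chr17:25579085-25662826, plus strand), the chaperone that the lipase needs to become active, was at 30.6, 29.6 and 30.5 CPM in controls and at 20.4, 18.6 and 19.5 CPM in Cebpa_ASKO. Both genotypes varied little, with SDs of 0.532 and 0.904 CPM. The Cebpa_ASKO mean was 64.6% of the control mean, with a log2 fold change of -0.63 ± 0.0769 (SE) and an adjusted p of 0.00647 in edgeR's test. This was the smallest of the 5 falls.

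*Angptl4* (chr17:33773750-33781830, minus strand), the fasting-induced inhibitor of the lipase, did not follow. The controls held 343, 407 and 332 CPM and the Cebpa_ASKO libraries 399, 233 and 345 CPM. Cebpa_ASKO 1 and 3 lay inside the control range and Cebpa_ASKO 2 below it. The log2 fold change was -0.15 ± 0.209 (SE), with a 95% interval from -0.65 to 0.35 and an adjusted p of 0.778 in edgeR's test, so a fall of the size seen for *Lpl* lay outside the interval. The mice were ad libitum fed. Most of the counts of *Angptl4*, 76.4% ± 0.882 in controls and 76.1% ± 1.11 in Cebpa_ASKO (SD, n = 3 each), were assigned to a transcript that the annotation marks as a target of nonsense-mediated decay, and the protein-coding transcript took 22.8% and 22.6%.

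Levels of the partners relative to *Lpl* were compared within each library by TPM. *Angptl4* stood at 18.6, 20.7 and 15.4 TPM per 100 TPM of *Lpl* in controls and at 45.3, 32.6 and 47.9 in Cebpa_ASKO. Every Cebpa_ASKO mouse thus had more *Angptl4* RNA per *Lpl* RNA than any control, with means of 18.2 ± 2.70 and 41.9 ± 8.19 (SD, n = 3 each), a difference of 1.19 on the log2 scale. *Gpihbp1* was at 8.39 ± 0.308 per 100 TPM of *Lpl* in controls and at 9.59 ± 0.689 in Cebpa_ASKO, a log2 difference of 0.19, the smallest of the 6 ratios. *Lmf1* went from 1.77 ± 0.151 to 2.80 ± 0.136, and *Cd36* from 60.5 ± 7.07 to 86.5 ± 8.91. In each of these ratios the genotypes did not overlap, and the exact two-sided permutation p was 0.1, the smallest that 3 against 3 libraries allows, or 0.1 after adjustment over the 6 ratios computed. The design therefore could not reach 0.05 in this test.

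**Figure D2:**
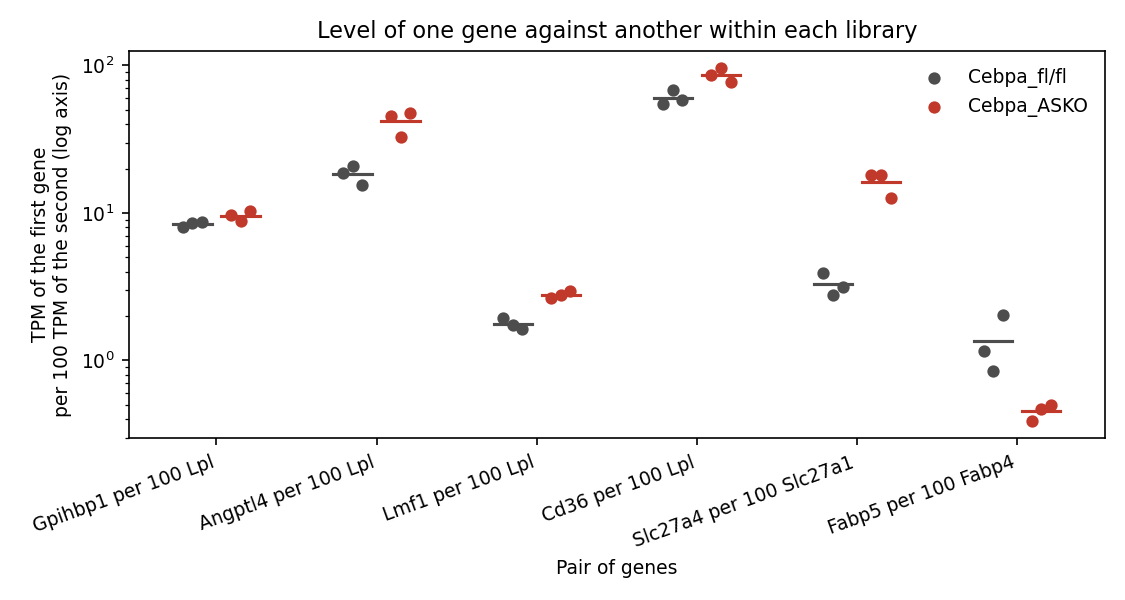
TPM of one gene per 100 TPM of another within each library, on a log axis, for 6 pairs. Points are libraries (dark, Cebpa_fl/fl; red, Cebpa_ASKO) and lines are means. *Angptl4* per *Lpl* moves from 18.2 to 41.9 and *Slc27a4* per *Slc27a1* from 3.28 to 16.3, while *Fabp5* per *Fabp4* moves down from 1.35 to 0.453.

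*Cd36* (chr5:17781690-17888801, minus strand) encodes a membrane receptor that takes up fatty acids in adipocytes and in capillary endothelium, and modified lipoproteins in macrophages. It was at 1413, 1867 and 1737 CPM in controls and at 1081, 972 and 810 CPM in Cebpa_ASKO, with no overlap. The means were 1672 ± 234 and 954 ± 137 CPM (SD, n = 3 each), and the log2 fold change was -0.81 ± 0.182 (SE), with an adjusted p of 0.0577 in edgeR's test and 3.84e-05 in DESeq2, where 6.33% of all genes were called lower. The most abundant transcript taken alone passed edgeR's test, with a log2 fold change of -0.88 and an adjusted p of 0.0425. The 6 annotated transcripts begin at 3 separate places in the gene. Those with the most upstream start held 1105 ± 175 CPM in controls and 599 ± 85.8 CPM in Cebpa_ASKO, 54.2% of the control mean. Those with the downstream start were at 247 ± 29.7 and 129 ± 3.44 CPM, or 52.4%. Those with the middle start were at 321 ± 42.4 and 226 ± 50.8 CPM, or 70.4%, the only ones that overlapped between the genotypes. That overlap rested on Cebpa_ASKO 1, at 278 CPM, just above Cebpa_fl/fl 1, at 276 CPM. The difference between the starts was not tested. The share of the most abundant transcript, which has the upstream start, was 65.8% ± 1.44 in controls and 62.7% ± 0.416 in Cebpa_ASKO. That difference of -3.11 percentage points had an exact two-sided permutation p of 0.1, or 0.25 after adjustment over the 5 genes with at least 2 transcripts of 5% or more.

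**Figure D3:**
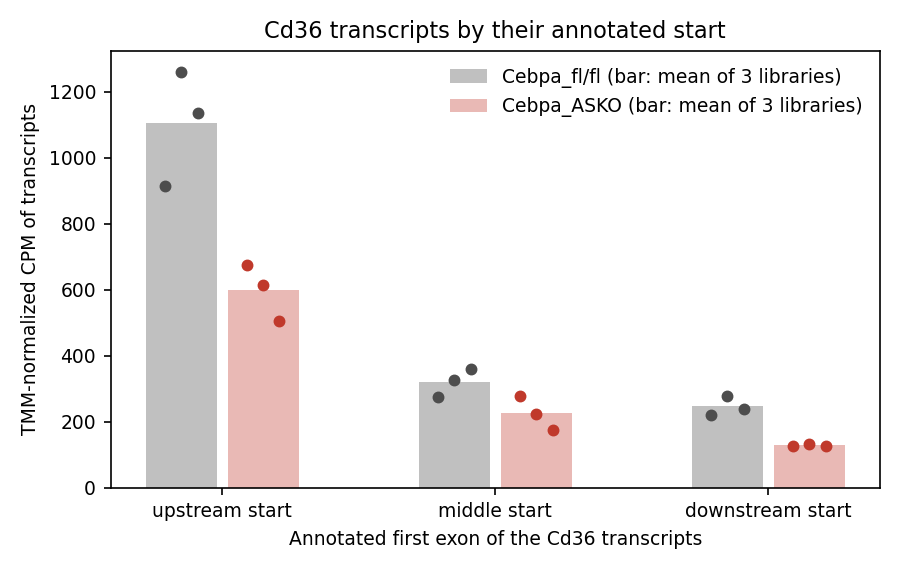
CPM of the *Cd36* transcripts grouped by their annotated first exon, from the most upstream to the most downstream start. Bars are means of 3 libraries, starting at 0, and points are libraries (dark, Cebpa_fl/fl; red, Cebpa_ASKO). The upstream group goes from 1105 to 599 CPM, the middle from 321 to 226 and the downstream from 247 to 129. Only the middle group overlaps, narrowly and by Cebpa_ASKO 1 alone.

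*Slc27a1* (chr8:71568882-71587302, plus strand) and *Slc27a4* (chr2:29802634-29817522, plus strand) encode FATP1 and FATP4, related membrane proteins that take up long-chain fatty acids and join them to coenzyme A. *Slc27a1* was at 499, 789 and 662 CPM in controls and at 111, 90.5 and 137 CPM in Cebpa_ASKO. This was the deepest fall of the 10 genes, to 17.4% of the control mean, with a log2 fold change of -2.52 ± 0.232 (SE) and an adjusted p of 0.00239 in edgeR's test. *Fabp5* was close, at -2.36 ± 0.225 (SE), and the difference between them was not tested. Without Cebpa_fl/fl 2 their order turned, with *Slc27a1* at -2.37 and *Fabp5* at -2.55. *Slc27a4* was at 37.0, 40.5 and 40.6 CPM in controls and at 39.3, 32.6 and 34.5 CPM in Cebpa_ASKO. Its log2 fold change was -0.15 ± 0.0970 (SE), with a 95% interval from -0.38 to 0.08 and an adjusted p of 0.465, and 1 Cebpa_ASKO library lay inside the control range. The interval for *Slc27a1*, from -3.08 to -1.97, does not meet it. Per 100 TPM of *Slc27a1* there were 3.90, 2.79 and 3.15 TPM of *Slc27a4* in controls and 18.0, 18.2 and 12.7 in Cebpa_ASKO, a log2 difference of 2.31 (exact two-sided permutation p = 0.1). *Slc27a1* stayed above *Slc27a4* in every library. Of the counts of *Slc27a1*, 34.3% in controls and 35.0% in Cebpa_ASKO were assigned to a transcript annotated as a retained intron, with its own start inside the gene. The transcripts with the outer starts stood at 17.6% and this retained-intron transcript at 17.8% of their control means. A minor retained-intron transcript with a start between them stood at 9.76%, from 25.2 ± 5.52 to 2.46 ± 2.18 CPM.

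The promoters of these 3 transport genes are shown because *Slc27a1* was called lower, *Cd36* was apart but not called and *Slc27a4* overlapped between the genotypes. The difference between *Cd36* and *Slc27a4* was not tested. The windows hold the 250 bases before a RefSeq transcription start on GRCm38.p6, and RefSeq windows were found for 5 of the 10 genes, *Lmf1*, *Cd36*, *Slc27a1*, *Slc27a4* and *Olr1*. Capitals mark CCAAT and the GC box GGGCGG on either strand. The *Slc27a1* window is the first of 3 for that gene, chr8:71568621-71568870 on the plus strand. The *Slc27a4* window is chr2:29802384-29802633 on the plus strand, and the *Cd36* window, near the downstream start, is chr5:17835897-17836146 on the minus strand. No window was found for the upstream start, whose transcripts held most of the *Cd36* counts, or for the middle start.
Slc27a1: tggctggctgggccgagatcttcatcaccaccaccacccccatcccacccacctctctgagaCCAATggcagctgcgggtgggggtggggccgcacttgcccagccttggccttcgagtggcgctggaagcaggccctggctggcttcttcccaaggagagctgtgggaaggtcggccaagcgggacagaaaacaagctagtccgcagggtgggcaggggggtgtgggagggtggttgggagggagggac
Slc27a4: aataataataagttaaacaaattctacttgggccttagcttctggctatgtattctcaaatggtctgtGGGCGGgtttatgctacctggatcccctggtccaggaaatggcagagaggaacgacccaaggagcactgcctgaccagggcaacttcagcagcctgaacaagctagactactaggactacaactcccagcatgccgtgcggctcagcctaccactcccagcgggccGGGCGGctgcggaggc
Cd36: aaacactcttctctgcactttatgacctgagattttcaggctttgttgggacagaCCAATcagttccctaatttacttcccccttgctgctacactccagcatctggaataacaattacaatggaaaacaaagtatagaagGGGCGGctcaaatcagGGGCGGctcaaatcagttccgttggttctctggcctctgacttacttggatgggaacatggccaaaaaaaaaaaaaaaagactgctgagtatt
The *Slc27a1* window has a CCAAT at -188, counted from the start, and no GC box, but the other windows of *Slc27a1* do hold GC boxes, one at -139 and the other at -159, -48 and -17 with a CCAAT at -128. The *Slc27a4* window has GC boxes at -182 and -16 and no CCAAT, and the *Cd36* window has a CCAAT at -195 and GC boxes at -109 and -93. None of these matches overlap, and the presence of a GC box does not separate *Slc27a1* from *Slc27a4*. CCAAT occurred in 33.8% and GGGCGG in 32.7% of all 32851 RefSeq windows of the same length. The C/EBP motif TTGCNNAA, searched on both strands and present in 9.56% of all windows, was in none of the 7 windows of the 5 genes. These matches describe letters in short windows and say nothing about binding.

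*Fabp4* (chr3:10204088-10208576, minus strand) and *Fabp5* (chr3:10012548-10016607, plus strand) encode fatty acid binding proteins and lie near each other on chromosome 3. *Fabp4*, the adipocyte form, was the most abundant of the 10 genes, ranking between 8 and 12 among all genes by TPM in controls and 14 in each Cebpa_ASKO library. It was at 8535, 9251 and 7309 CPM in controls and at 5548, 4263 and 4013 CPM in Cebpa_ASKO, so the genotypes were apart. The means were 8365 ± 982 and 4608 ± 823 CPM (SD, n = 3 each), and the log2 fold change of -0.86 ± 0.241 (SE) had an adjusted p of 0.107 in edgeR's test and 1.51e-05 in DESeq2.

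*Fabp5*, which is also expressed in macrophages, endothelium and epidermis, was at 110, 87.6 and 160 CPM in controls and at 24.9, 22.5 and 22.3 CPM in Cebpa_ASKO. The controls varied widely between libraries, and the Cebpa_ASKO libraries hardly at all. *Fabp5* fell to 19.5% of its control mean, with a log2 fold change of -2.36 ± 0.225 (SE) and an adjusted p of 0.00263 in edgeR's test. Per 100 TPM of *Fabp4* there were 1.16, 0.845 and 2.04 TPM of *Fabp5* in controls and 0.390, 0.467 and 0.503 in Cebpa_ASKO, a log2 difference of -1.48 (exact two-sided permutation p = 0.1). Of the 31-base words in the *Fabp5* transcripts, 9.27% also occur in transcripts of other genes. Of these 333 words, 260 occur in *Gm6166*, with at most 1 count in any library, and 161 in *Gm14328*, with 0 counts. The only other listed symbol that begins with Fabp5 shares 59 words and had 0 counts in all 6 libraries.

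*Olr1* (chr6:129485244-129507165, minus strand) encodes LOX-1, a receptor for oxidized LDL. Its counts were 10, 6 and 13 in controls and 23, 42 and 18 in Cebpa_ASKO, against a limit of 3 counts taken here as the floor of detection. In CPM these were 0.223, 0.127 and 0.275 against 0.729, 1.07 and 0.404, so each Cebpa_ASKO library was above each control. The log2 fold change was 1.80 ± 0.494 (SE), with a 95% interval from 0.62 to 2.98 and an adjusted p of 0.101 in edgeR's test. DESeq2 gave an adjusted p of 0.0456, where 3.72% of all genes were called higher. At these counts the size of the difference is not well determined. The highest library was Cebpa_ASKO 2, which also had the most skeletal muscle RNA, and the part of muscle in the difference was not tested.

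**Figure D4:**
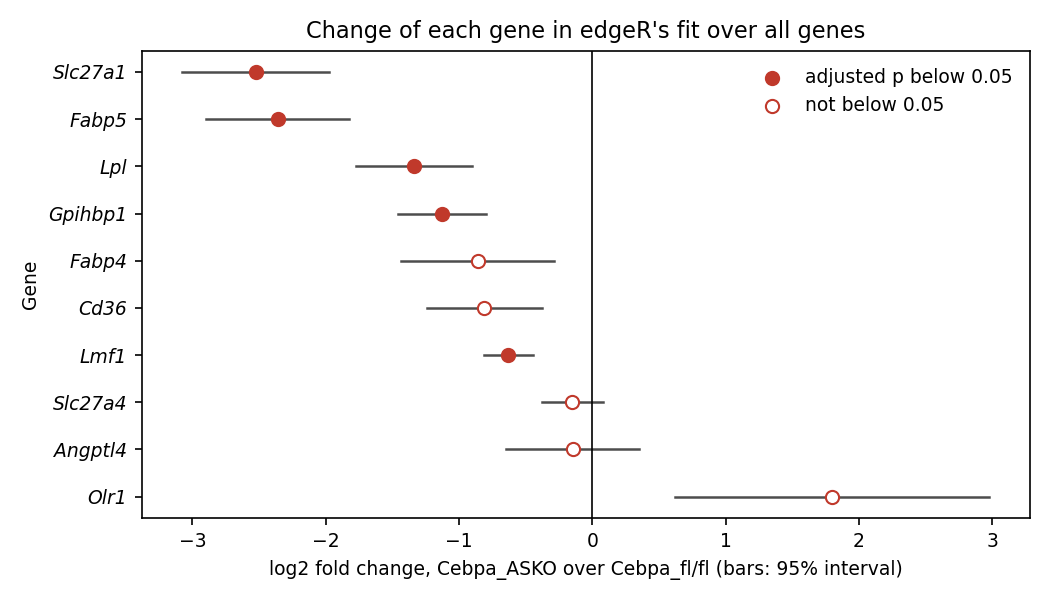
Log2 fold change of each gene, Cebpa_ASKO over Cebpa_fl/fl, with its 95% interval from edgeR's fit over all genes. Filled points had an adjusted p below 0.05. *Slc27a1* (-2.52) and *Fabp5* (-2.36) lie farthest to the left, and the intervals of *Slc27a4* and *Angptl4* cross 0.

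By TPM the order of the genes in controls was *Fabp4* at 13271 ± 2131, *Lpl* at 1292 ± 143, *Cd36* at 785 ± 153, *Slc27a1* at 381 ± 101, *Angptl4* at 235 ± 38.2, *Fabp5* at 171 ± 54.1, *Gpihbp1* at 109 ± 15.8, *Lmf1* at 22.7 ± 0.853, *Slc27a4* at 12.1 ± 1.30 and *Olr1* at 0.0752 ± 0.0293 TPM (SD, n = 3). *Slc27a1* and *Angptl4* overlapped in that order, as did *Angptl4* and *Fabp5*, and no other neighbours did. In Cebpa_ASKO *Angptl4*, at 223 ± 50.1 TPM, stood above *Slc27a1*, at 73.1 ± 19.0 TPM, and *Gpihbp1*, at 50.9 ± 5.14 TPM, stood above *Fabp5*, at 34.2 ± 0.950 TPM. The 10 genes took 1.53%, 1.89% and 1.46% of all TPM in the controls and 0.994%, 0.883% and 0.826% in Cebpa_ASKO.

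Other genes of the pathway were read from 4 lists, in which 13 of 64 tested genes were called lower and 1 higher, or 20.3% and 1.56%, beside the 3.84% and 1.39% of all genes tested. Without Cebpa_ASKO 1 there were 6 lower, and without Cebpa_ASKO 2 there were 8 lower, and *Got2*, the gene called higher, was lost in both. Of 25 tested partners of the lipase 6 were called lower, with a median log2 fold change of -0.12. *Sort1*, whose product sorts proteins between the Golgi and endosomes, went from 331 ± 49.6 to 141 ± 10.3 CPM (log2 fold change -1.23), and *Syvn1*, the ubiquitin ligase that works with SEL1L in the endoplasmic reticulum, from 57.1 ± 5.97 CPM to values between 38.3 and 43.1 CPM (-0.51). *Sel1l* itself was at 110.0 ± 8.65 and 118 ± 7.32 CPM. Among secreted regulators *Angptl8*, a fed-state regulator of the lipase, fell from 27.6 ± 14.7 to 3.47 ± 0.882 CPM (-2.99), and *Apoc3*, an apolipoprotein that slows triglyceride clearance, fell from 4.60 ± 1.87 to 0.303 ± 0.175 CPM (-3.91). *Apoc1* fell from 113 ± 22.6 to 39.7 ± 9.46 CPM (-1.52) and *Apoe* from 2257 ± 316 to 1288 ± 72.1 CPM (-0.81). *Apoc2*, the activator of the lipase, was at 1.61 ± 0.230 and 0.414 ± 0.248 CPM with an adjusted p of 0.0595 in edgeR's test, and was named after its value was seen. *Apoa5* had no count in any library.

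Among 19 tested genes of fatty acid transport 4 were called lower and 1 higher, with a median of -0.04. *Cav1*, the coat protein of caveolae, fell from 973 ± 112 to 447 ± 60.3 CPM (-1.12), and *Scp2*, a lipid carrier of peroxisomes, from 774 ± 14.2 to 447 ± 39.9 CPM (-0.79). *Ffar4*, a cell surface receptor for long-chain fatty acids, fell from 22.9 ± 0.843 to 6.18 ± 0.758 CPM (-1.89), and *Rbp7*, a retinoid binding protein related to the FABPs, from 20.6 ± 3.28 to 4.34 ± 1.14 CPM (-2.25). *Got2*, a mitochondrial aminotransferase that has also been described as a fatty acid binding protein of the plasma membrane, rose from 41.2 ± 2.46 to 57.0 ± 0.984 CPM (0.47). *Fabp3*, the heart and muscle form, was named after its values were seen. It was at 90.4, 4.24 and 9.96 CPM in controls and at 390, 266 and 130 CPM in Cebpa_ASKO, apart but with an adjusted p of 0.216 in edgeR's test. The skeletal muscle markers were also higher in the Cebpa_ASKO libraries. *Fabp3* was highest in Cebpa_ASKO 1 and the muscle markers in Cebpa_ASKO 2. The part of muscle in the difference of *Fabp3* was not tested.

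Of 14 scavenger receptors 1 was called lower, with a median of -0.02. It was *Scarb1*, the HDL receptor SR-BI, which fell from 84.4 ± 11.4 to 29.8 ± 4.60 CPM (-1.50). The most highly expressed of the list, *Scarb2* and *Scara5*, were at 161 ± 3.06 and 153 ± 104 CPM in controls and at 150.5 ± 4.61 and 138 ± 23.7 CPM in Cebpa_ASKO. Of 6 genes of endothelial fatty acid supply 2 were called lower, with a median of -0.77. *Vegfb*, a growth factor made by parenchymal cells that acts on endothelium, fell from 110 ± 7.30 to 48.3 ± 7.72 CPM (-1.19), and *Car4*, a carbonic anhydrase of capillary endothelium, from values between 20.8 and 22.7 CPM to 7.09 ± 2.81 CPM (-1.63). *Flt1*, the receptor of VEGF-B, was at 36.8 ± 9.14 and 28.4 ± 7.47 CPM.

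**Figure D5:**
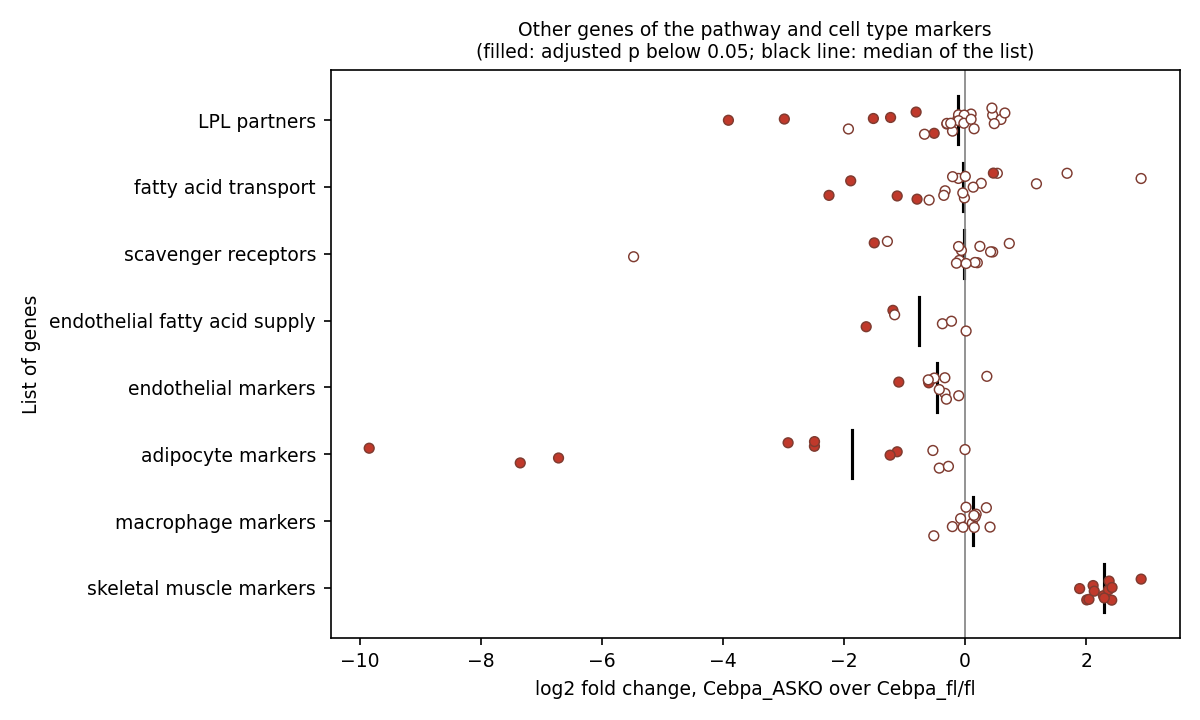
Log2 fold change, Cebpa_ASKO over Cebpa_fl/fl, of the tested genes in 4 lists of the pathway and 4 lists of cell type markers. Each point is a gene, filled where the adjusted p was below 0.05, and the black line is the median of the list. The medians of the first 4 lists are -0.12, -0.04, -0.02 and -0.77, and those of the endothelial, adipocyte, macrophage and skeletal muscle markers are -0.47, -1.86, 0.13 and 2.29.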

How the data were processed

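Poly-A RNA of whole iWAT was sequenced in 3 Cebpa_fl/fl and 3 Cebpa_ASKO mice, grouped by their labels. The authors deposited kallisto's estimated counts and TPM for each transcript, and TPM for each gene symbol. The submitters' processing notes name kallisto 0.44.0 and the builds GRCm38.p6 and GRCh38.p12, without their roles. How kallisto was set to treat strand is not given in the sources used here. Of 118489 transcripts 98.6% matched GENCODE M21 (GRCm38), and their estimated counts were summed by symbol and rounded. For all 10 genes the summed transcripts gave the authors' gene TPM.

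Counts were tested in edgeR 4.0.16 (glmQLFit and glmQLFTest, R 4.3.3) with TMM scaling and the filterByExpr filter, without covariates. Levels were compared between genes by TPM, and ratios and transcript shares by exact permutation over all 20 arrangements. Alternatives used DESeq2 1.42.0, limma 3.58.1 on log2(TPM + 1) or log2(TPM + 0.1), other scalings and filters, a length offset, the replicate number as a block, the most abundant transcript alone and each library left out. In simulated counts for 16069 genes, 200 well-counted genes were changed. The procedure called 54% of those with a log2 fold change of -1 and 82% at -2, and 62% at 1 and 96% at 2. It made 156 calls, against 840 in the data. These shares therefore may not hold for the data, or for genes with few counts such as *Olr1*. The libraries held 33141769 to 49477671 counts, and 3 counts were taken as the floor. Replicates differed by far more than sampling noise and were all used.

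The 10 genes and all lists were chosen with earlier results of these data known. The text names the 10 genes, the called genes of each pathway list, the 2 most expressed of a list with fewer than 2 calls, the first markers of a cell type, and the 5 genes with a profile nearest to *Lpl*, of which 1 is not reported here. Kallisto divides reads among similar transcripts, so transcript shares are estimates. Promoters came from RefSeq (GRCm38.p6).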

Additional observations from a re-analysis of the deposited data

How the results depend on the processing

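The number of the 10 genes called lower was 5, and 4 to 7 under other settings except the replicate block, where it was 3. There *Lpl* and *Lmf1* kept their log2 fold changes of -1.34 and -0.63 with adjusted p of 0.0829 and 0.0504. The deviations of same-numbered libraries had correlations of 0.0662, 0.0278 and -0.201, and those of other pairs ran from -0.179 to 0.1515. With 3 libraries per genotype these values cannot show whether the numbers pair the mice. The block changed no other call among the 10 genes. DESeq2 called 1 gene higher, *Olr1*. Leaving out 1 library gave 4 or 5 genes called lower, and *Angptl4* ran from -0.32 to 0.028, its sign turning without Cebpa_ASKO 2. Genes of the pathway lists called lower numbered 13, but 7 under the replicate block, and 6 to 13 with 1 library left out. Those called higher numbered 1, but 4 by DESeq2, 0 by limma without a filter, 0 under the block and 0 to 1 with 1 library left out. The difference in share of the most abundant transcript ran with 1 library left out from -0.46 to 2.14 points for *Gpihbp1*, from -0.50 to 8.31 for *Lmf1* and from -0.95 to 0.067 for *Angptl4*. Calls over all genes numbered 840, and 1796 by DESeq2, 359 by limma without a filter, 370 under the block and 311 (without Cebpa_ASKO 1) to 922 (without Cebpa_fl/fl 2) with 1 library left out. The causes were not tested. Over 168 refits of the 10 genes, each gene and setting counted once, 160 kept direction and call. Not all of these could differ. Joining *Fabp5* with the other symbol that begins with Fabp5 added 0 counts. The most abundant transcript held 99.8% of the counts of *Lpl* and of *Slc27a4*. *Cebpa* kept both in all 16 of its own refits. *Olr1* could not be fitted under the filters on 10 counts in every library or on TPM. Counting depth limits *Olr1*, while the other 9 genes had at least 645 counts in every library.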

Other observations

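Among 8559 well expressed genes, those whose log2 CPM, centred on their own mean, lay close to that of *Lpl* over the 6 libraries included *Isoc2a*, *Adhfe1*, *Nr1h3* and *Tcim*. Their root mean square distances from *Lpl* were 0.0599, 0.0620, 0.0886 and 0.0903 on the log2 scale. *Adhfe1*, which encodes a mitochondrial alcohol dehydrogenase, went from 181 ± 13.8 to 73.1 ± 3.61 CPM (SD, n = 3 each), and *Nr1h3*, which encodes the oxysterol receptor LXRα, from 77.6 ± 3.74 to 31.4 ± 1.15 CPM. Of the other 9 genes described above, *Gpihbp1* was nearest to *Lpl*, in place 19 at a distance of 0.126, followed by *Fabp4* in place 146 and *Cd36* in place 161. *Angptl4*, *Slc27a4* and *Slc27a1* lay at 0.617, 0.595 and 0.643. All 6 libraries and both genotypes enter these distances, so a like change between genotypes is enough to bring a gene near.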
